A study of Mus musculus with 5 samples.

Results

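Elastic fibres give the gut wall, vessels and skin their recoil. The genes described here encode elastin (Eln), the fibrillins Fbn1 and Fbn2, the microfibril-associated proteins Mfap2, Mfap4 and Mfap5, the fibulins Fbln1, Fbln2 and Fbln5, and the cross-linking enzyme lysyl oxidase (Lox). Members were chosen by gene symbol, as every array probe set annotated to 1 of these 10 symbols and to no other, and they were listed with earlier results of these data known. This gave 14 probe sets of 9 genes among 22626 probe sets tested, and Fbn1 had 0 probe sets under the annotation used here. The values of null and control colons below are therefore descriptions of chosen genes.

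Expression was measured by 1 Affymetrix array for the colon of each of 5 mouse embryos at stage E18.5. The 3 HNF4 null embryos (null_59, null_60 and null_426) had the genotype HNF4LoxP/LoxP FoxA3Cre, with loxP sites in both HNF4 alleles. The 2 control embryos (CONTROL_406 and CONTROL_421) were HNF4LoxP/+ FoxA3Cre, so the Cre transgene was shared by all embryos and the controls carried 1 floxed allele. Foxa3, after which the transgene is named, is active in endodermal epithelium, whereas elastic fibres are made by fibroblasts, smooth muscle cells and vessel wall cells, and whole colon RNA holds both. In such bulk samples, fewer cells of a type and less RNA per cell cannot be told apart.

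In elastic fibre assembly, fibrillins are secreted first and join end to end into microfibrils, thin filaments that carry the small glycoproteins Mfap2 and Mfap5. Tropoelastin, the soluble product of Eln, is laid down on this scaffold with the help of fibulins, and lysyl oxidase oxidises lysines of tropoelastin so that neighbouring molecules become covalently linked. Microfibrils also hold latent TGF-beta complexes in the matrix. Most elastin is made around birth, when large vessels, lung and other elastic tissues mature.

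Promoters are shown for Mfap2 and Fbln1, 2 genes whose levels differed most between the control colons among those with a sequence in the table. RefSeq windows of 250 bases before to 50 after a start (build GRCm38.p6) were used for 5 of the 10 genes, in 8 windows. Any member window on a chromosome that was set aside was left out, while the shares over all windows include that chromosome. A gene missing from these windows therefore need not lack a promoter window. They are printed 5′ to 3′, for Mfap2 at chr4:141010431-141010730 and for Fbln1 at chr15:85205758-85206057, both on the + strand. Capitals mark the GC box GGGCGG or its reverse complement CCGCCC, which Sp1-type factors are known to bind.
Mfap2: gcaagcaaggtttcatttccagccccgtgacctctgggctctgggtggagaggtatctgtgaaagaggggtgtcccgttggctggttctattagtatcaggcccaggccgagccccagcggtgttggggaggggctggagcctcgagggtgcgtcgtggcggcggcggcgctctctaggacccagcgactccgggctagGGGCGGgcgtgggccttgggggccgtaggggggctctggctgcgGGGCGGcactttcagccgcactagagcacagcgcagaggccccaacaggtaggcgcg
Fbln1: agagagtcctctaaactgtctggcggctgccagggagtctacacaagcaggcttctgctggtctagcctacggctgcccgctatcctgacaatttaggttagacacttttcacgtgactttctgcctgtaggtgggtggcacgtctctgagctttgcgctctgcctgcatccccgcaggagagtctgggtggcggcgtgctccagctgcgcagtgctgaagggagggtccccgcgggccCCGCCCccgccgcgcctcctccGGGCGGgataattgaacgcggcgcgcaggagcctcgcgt
Each of these windows held 2 GC boxes, and each gene also had a second window with 0. Only windows with a GC box were printed, so its presence in them was fixed by this choice. The windows left out were those at the outermost start of each gene. Of the 8 member windows 5 held a GC box, 1 from each of the 5 genes, against 35.7% of all 32851 windows. The windows with a box had 60.3% to 68.0% G and C bases and the others 48.7% to 52.0%. The median over all windows was 52.7%. The windows of Mfap2 overlap each other, as do those of Fbln1, so the 8 are not separate sequences. The TATA box TATAAA, the AP-1 site TGANTCA and the HNF4 motif CAAAGTCCA were searched on both strands as well, and these letters were in 0 of the 8 windows, against 13.6%, 7.81% and 0.475% of all windows. A match describes the sequence and is no evidence of binding.

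The array medians lay between 124 and 135 intensity units, and pairs of arrays correlated at 0.946 to 0.974 across probe sets (Pearson), which are not independent replicates. CONTROL_421 had a 3′ over 5′ ratio of 1.47 for the Gapdh control probe sets, against 0.767 to 0.895 in the other arrays. Its ratio for the transferrin receptor gene Tfrc was the lowest (1.51, against 2.69 to 3.48). That for Actb (1.76) lay within the range of the others (1.44 to 1.83). CONTROL_421 thus lay outside the range of the other arrays for Gapdh and Tfrc, in opposite directions. Of 4 probe sets of Hnf4a, 0 passed the threshold and 1 had an unadjusted p under 0.05 by limma, with log2 differences from -0.55 to 0.19. Since the floxed exons are not named in the labels, these probe sets do not check the genotype. All 6 measured markers of colonic position (Cdx1, Cdx2, Hoxd13, Hoxa13, Hoxd12 and Car1) had intensities above 0 on every array. No detection calls were used here, so an intensity above 0 is not a statement that a gene was expressed.

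None of the elastic fibre and microfibril genes passed the threshold between HNF4 null and control colons. By limma, 0 of the 14 probe sets had an adjusted p under 0.05 and 0 had an unadjusted p under 0.05, against 0.124% and 7.15% of all 22626 probe sets. Their log2 differences, null minus control on the log2(intensity + 16) scale, ran from -0.39 to 0.43, with 8 above 0 and 6 below (42.9%, against 47.1% of all probe sets below 0). The median was 0.08, against 0.02 over all probe sets. All 14 of the 95% intervals included 0, and the highest bound was a fold of 2.08, for Mfap4. The fit pools 3 null and 2 control arrays, which limits the precision, and its p-values measure the spread between these embryos, whose litters the labels do not give.

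The 2 control colons also differed from each other. All 14 probe sets, which stand for 9 genes, were lower in CONTROL_421 than in CONTROL_406, against 47.6% of all probe sets. This count was also 14 under each other scaling tried, but as deposited the share of all probe sets was 58.2%. The median log2 difference of CONTROL_421 minus CONTROL_406 was -0.24 for the members, against 0.02 over all probe sets. In 9 of the 14 probe sets (64.3%) the controls differed by more than null and control did, close to the 60.1% of all probe sets. CONTROL_421 was the lowest of the 5 arrays after scaling in 7 of the 14 (50%), against 22.7% of all probe sets, and CONTROL_406 the highest in 6 of the 14 (42.9%), against 16.9%. These shares describe chosen genes that are known to be made by overlapping cell types, and no test was made of them.

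**Figure D1:**
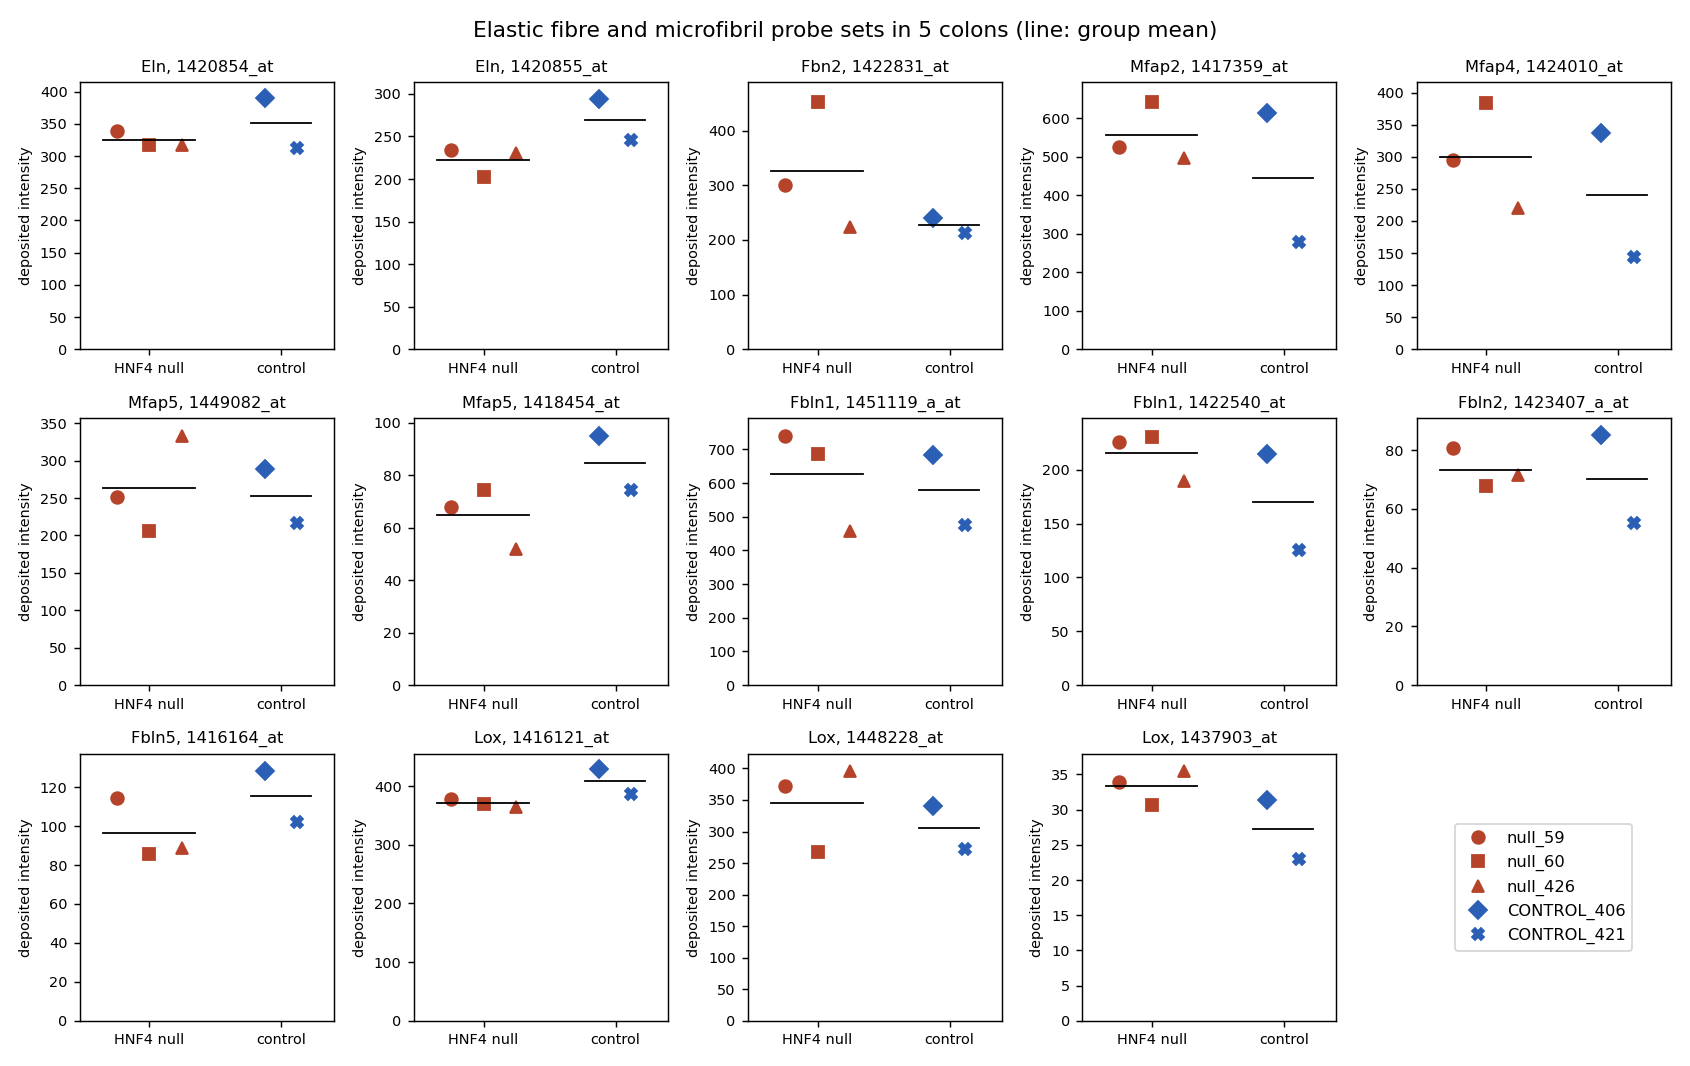
Deposited intensity (linear, vertical axis from 0) of the 14 probe sets in the 3 HNF4 null colons (red, left) and the 2 control colons (blue, right), with 1 symbol per array and a line at the group mean. CONTROL_421 (cross) lies below CONTROL_406 (diamond) in all 14 panels, against 58.2% of all probe sets as deposited. As a ratio it does so most of all for Mfap2 (278 against 613) and Mfap4 (144 against 337).

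Eln encodes tropoelastin, the elastic core of the fibre. By its brighter probe set, 1420854_at, it read 339.7, 318 and 317 in null_59, null_60 and null_426, against 391 and 312 in CONTROL_406 and CONTROL_421. As deposited, the null arrays lay between the 2 control arrays. The log2 difference was -0.08 ± 0.17 (SE), with a 95% interval from -0.46 to 0.29. Probe set 1420855_at read 234, 202 and 231 in the null colons, against 294 and 245 in the control colons. Here all 3 null arrays were below both control arrays, and the difference was -0.26 ± 0.17 (SE, 95% interval -0.64 to 0.13). Both probe sets thus had a difference below 0. That of 1420854_at became 0.04 against CONTROL_421 alone, while that of 1420855_at was -0.16 against the same array.

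Fbn2 encodes fibrillin 2, a fibrillin best known from development. Its probe set read 301, 453 and 223 in the null colons, against 241 and 213 in the control colons. null_59 and null_60 were above both control arrays, and null_426 lay between them. Among the members, Fbn2 varied most within the null group, over 0.92 on the log2 scale, while its controls differed by 0.11. Its difference was 0.43 ± 0.25 (SE, 95% interval -0.14 to 0.99), and it was 0.19 without null_60 and 0.66 without null_426.

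The microfibril-associated glycoproteins Mfap2 and Mfap5 bind fibrillin, and Mfap4 is a fibrinogen-related protein that binds elastic fibres. Mfap2 read 526, 642 and 498 in the null colons, against 613 and 278 in the control colons. Mfap4 read 295, 384 and 219.6 in the null colons, against 337 and 144 in the control colons. In both genes the null arrays overlapped with CONTROL_406, and CONTROL_421 alone was low.

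Mfap2 averaged 556 ± 76.5 over the null colons (SD, n = 3) and 445 ± 237 over the control colons (SD, n = 2), a log2 difference of 0.43 ± 0.27 (SE). Mfap4 averaged 299.6 ± 82.5 over the null colons (SD, n = 3) and 241 ± 136 over the control colons (SD, n = 2), and its difference was 0.36 ± 0.31 (SE). The controls differed by -1.03 for Mfap2 and -1.04 for Mfap4 (CONTROL_421 minus CONTROL_406), a gap over 1 that 2.37% of all probe sets had. Which control was used decided the direction. The null mean of Mfap2 was 0.94 above CONTROL_421 and that of Mfap4 was 0.88 above it, while against CONTROL_406 they were -0.09 and -0.16. With CONTROL_406 left out, Mfap2 had the lowest adjusted p of any member in any setting by limma, 0.154, and its adjusted p over all settings reached 0.991.

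Mfap5 had probe sets with unlike values. Probe set 1449082_at read 252, 206 and 333 in the null colons, against 289 and 217 in the control colons, with the highest and the lowest value both in null arrays. Its difference was 0.06 ± 0.23 (SE). Probe set 1418454_at, the dimmer one, read 67.7, 74.2 and 52.0 in the null colons, against 94.7 and 74.1 in the control colons, a difference of -0.39 ± 0.20 (SE, 95% interval -0.84 to 0.05). After scaling its null arrays were all below both control arrays, but as deposited null_60 and CONTROL_421 were level. This was the lowest difference among the members, and the scale used compresses differences of dim probe sets.

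Fibulins are matrix glycoproteins that bridge elastin, fibrillin and basement membranes, and Fbln5 is needed for elastic fibre assembly in mice. Fbln1 by 1451119_a_at read 741, 686 and 458 in the null colons, against 685 and 476 in the control colons, a difference of 0.15 ± 0.23 (SE). Probe set 1422540_at read 225, 231 and 189.5 in the null colons, against 214 and 125 in the control colons, a difference of 0.32 ± 0.21 (SE). In both probe sets CONTROL_421 was far below CONTROL_406, by 0.47 and 0.62 on the log2 scale, and null_426 was the lowest of the null arrays.

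Fbln2 read 80.8, 67.7 and 71.3 in the null colons, against 85.0 and 55.2 in the control colons. The null arrays lay between the 2 controls, and the difference was -0.01 ± 0.19 (SE). Fbln5 read 114, 85.8 and 88.7 in the null colons, against 128 and 102 in the control colons, a difference of -0.29 ± 0.19 (SE, 95% interval -0.71 to 0.13). For Fbln5 null_60 and null_426 were below both controls and null_59 lay between them, and the difference was below 0 against either control alone (-0.39 and -0.19).

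Lox encodes lysyl oxidase, the enzyme that starts the cross-linking of elastin and collagen. Probe set 1416121_at read 378, 369.6 and 365 in the null colons, against 429.7 and 387 in the control colons. All null arrays were below both controls, by a difference of -0.11 ± 0.16 (SE). Probe set 1448228_at read 373, 267 and 396 in the null colons, against 340.2 and 272 in the control colons, a difference of 0.18 ± 0.22 (SE). Probe set 1437903_at, a dim one, read 34.0, 30.6 and 35.5 in the null colons, against 31.4 and 23.0 in the control colons, a difference of 0.10 ± 0.16 (SE). The 3 probe sets of Lox hence did not share a direction.

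**Figure D2:**
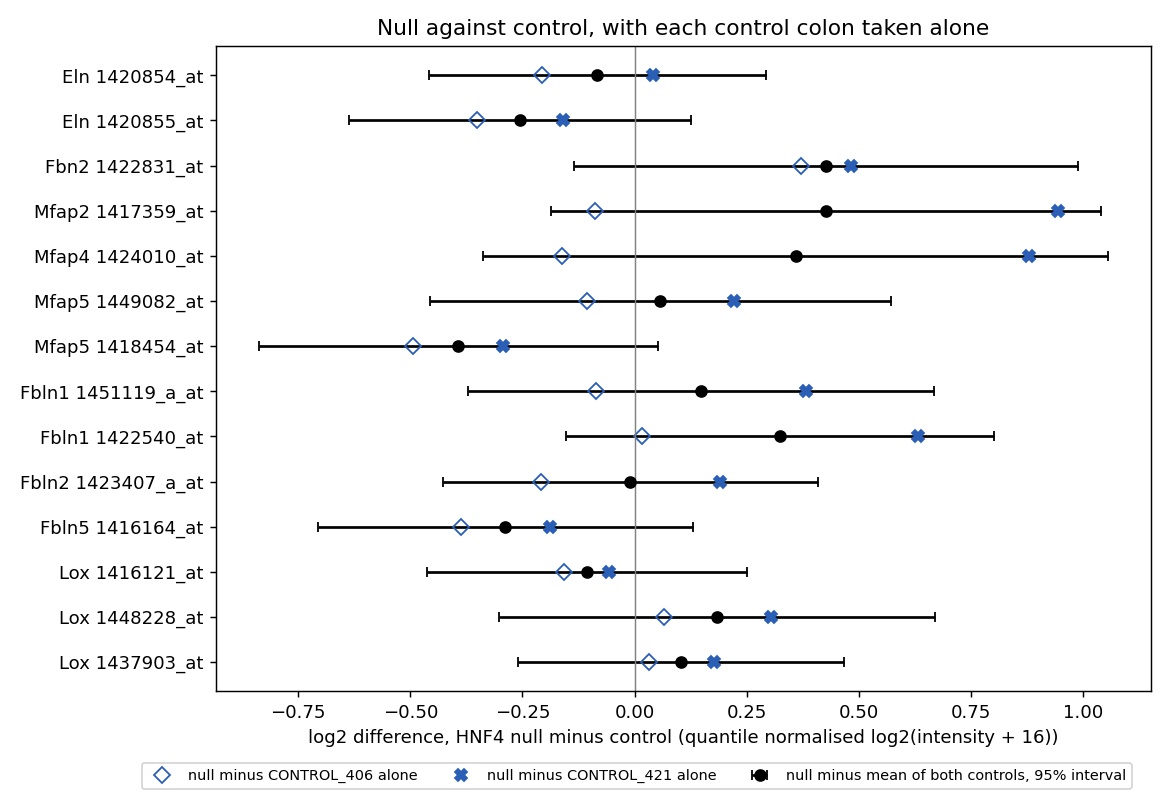
Log2 difference of HNF4 null minus control for the 14 probe sets (horizontal axis, quantile normalised log2(intensity + 16)), with the 95% interval of the fit over all 5 arrays (black) and the null mean minus CONTROL_406 alone (open diamonds) or CONTROL_421 alone (crosses). Every interval includes 0, and for 6 probe sets, Mfap2 and Mfap4 among them, the 2 controls give differences of opposite sign.

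Across the 14 probe sets, the null and control arrays did not overlap in 3 (21.4%), against 23.7% of all probe sets. These were 1420855_at of Eln, 1418454_at of Mfap5 and 1416121_at of Lox, with the null arrays below in each, while 11.6% of all probe sets had all null arrays below and 12% all above. In 6 probe sets (42.9%) the null mean lay between the 2 controls, against 38% of all probe sets. These were the brighter probe sets of Eln, Mfap5 and Fbln1 together with Mfap2, Mfap4 and Fbln2. The null mean was above CONTROL_421 in 10 of 14 and below CONTROL_406 in 10 of 14, against 51.1% and 49.1% of all probe sets.

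The other genes of the pathway were read by the brightest probe set of each, for 46 of 59 listed genes. By limma 0 of the 46 passed the threshold, against 0.124% of all probe sets, and 2 had an unadjusted p under 0.05, against 7.15%. The median difference was 0.04, with 28 genes above 0 and 18 below, and the groups did not overlap in 10 of the 46, against 23.7% of all probe sets.

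Among 7 cross-linking and processing enzymes, the lysyl oxidase-like gene Loxl3 differed by -0.0018 ± 0.21, the procollagen proteinase gene Bmp1, whose product also activates lysyl oxidase, by 0.07 ± 0.16 and its enhancer gene Pcolce by 0.13 ± 0.18 (SE). Of the other fibulins, Efemp1 differed by -0.22 and Fbln7 by -0.13. Emilin1, an elastin-microfibril interface protein, differed by -0.34 ± 0.21 (SE), and the microfibril-binding genes Adamtsl4 and Adamts10 by 0.20 and -0.27. Of 7 latent TGF-beta proteins and ligands, 6 were above 0. Ltbp4, a latent TGF-beta binding protein needed for elastic fibres in mice, differed by 0.21 ± 0.17 (SE), Ltbp3 by -0.20 and the ligand gene Tgfb3 by 0.25.

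Integrin genes whose products bind matrix proteins of this kind differed by 0.24 (Itgav), 0.32 (Itgb1) and 0.07 (Itgb5). Fn1 (fibronectin), Dcn (decorin) and Bgn (biglycan) differed by 0.12, -0.04 and 0.03. Among 10 enzymes that degrade elastin or matrix and their inhibitors, Mmp2 differed by -0.01, Mmp14 by -0.29 and Timp2 by -0.05. The 2 genes with an unadjusted p under 0.05, a share of the list below that of all probe sets, both had differences below 0 and were named after their values were seen. The lysosomal sialidase gene Neu1, part of the elastin receptor complex, read 267, 244 and 205 in the null colons, against 438 and 339 in the control colons, a difference of -0.66 ± 0.19 (SE, limma adjusted p = 0.493). Ctss, an elastin-degrading cathepsin of macrophages, read 157, 166 and 93.3 in the null colons, against 287 and 252 in the control colons, a difference of -0.94 ± 0.25 (SE, limma adjusted p = 0.437).

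**Figure D3:**
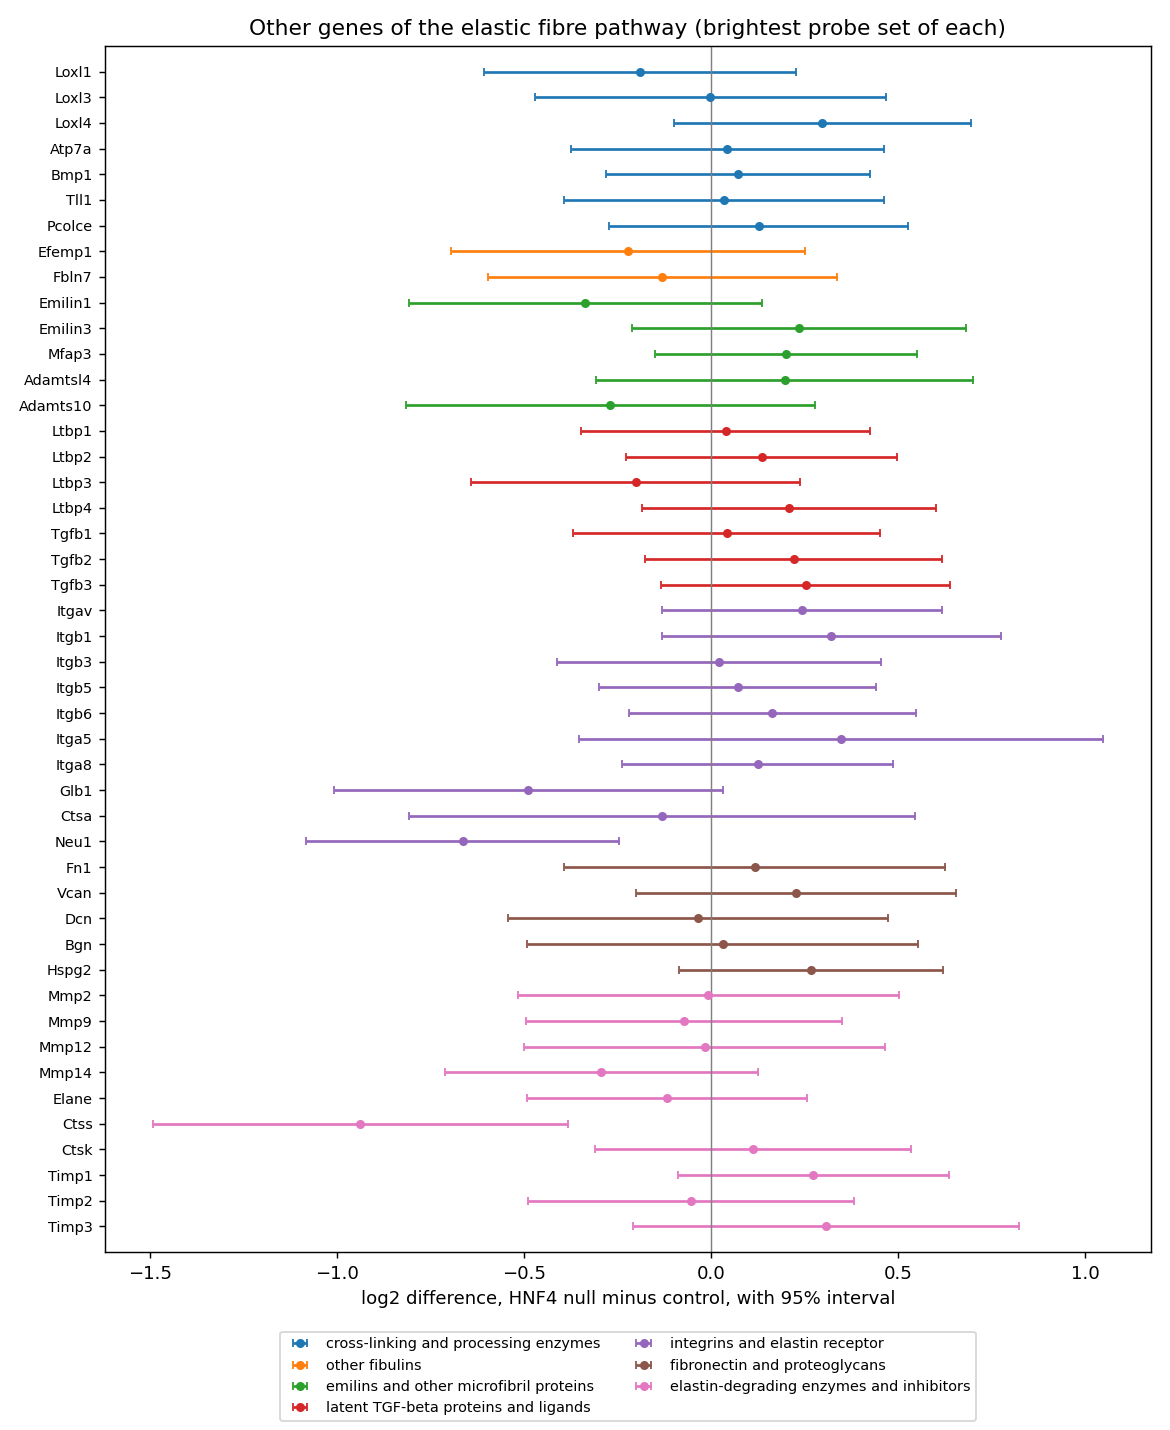
Log2 difference of HNF4 null minus control with its 95% interval (horizontal axis) for 46 other genes of the elastic fibre pathway, coloured by role. The intervals of Neu1 and Ctss lie wholly below 0, and the other 44 include 0.

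Markers of the cells that could hold these transcripts varied between the same arrays. The 9 smooth muscle markers summed to 17317 to 19214 intensity units in the null colons, against 17954 in CONTROL_406 and 15259 in CONTROL_421. After scaling, 5 of the 9 were lowest in CONTROL_421, against 22.7% of all probe sets. So were 3 of 7 mural, 3 of 7 endothelial, 2 of 8 fibroblast and 2 of 7 skeletal muscle markers. For epithelium, cartilage and bone, and colonic position the count was 0. The 7 markers of vascular mural cells summed to 1374 to 1663 in the null colons, against 1674 and 1109 in CONTROL_406 and CONTROL_421. All 5 measured markers of mesothelium were lowest in CONTROL_421, where they summed to 3291, against 3492 to 4241 in the null colons and 4078 in CONTROL_406. Most of each sum came from Krt19 alone, a keratin gene, so the sums follow that gene and do not measure mesothelium. Krt19 read 3028 in CONTROL_421, against 3056 to 3809 in the null colons and 3672 in CONTROL_406.

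The 8 fibroblast markers summed to 7444 to 10031 in the null colons, with the lowest value in null_426, against 10403 and 9350 in CONTROL_406 and CONTROL_421. Within this list Lum and Dpt were lower in CONTROL_421 than in CONTROL_406 by 0.72 and 0.65 on the log2 scale, whereas Col1a1 and Col3a1 differed by 0.00 and 0.01. The 9 epithelial markers summed to 12932 to 15517 in the null colons, against 17161 and 17087 in the control colons. Of the remaining lists, 7 endothelial markers summed to 1288 to 1499 in the null colons, against 1236 and 1188 in the control colons.

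The 7 skeletal muscle markers summed to 731 to 794 in the null colons, against 807 and 726, and among them Myh3 was at or below 0 in null_60. The 5 cartilage and bone markers summed to 416 to 524 in the null colons, against 368 and 446. The 6 markers of colonic position summed to 888 to 1064 in the null colons, against 1229 and 1563. Most of each sum came from Cdx1 and Cdx2, which are also in the epithelial list, so the sums do not measure position apart from epithelium. By limma 0 markers in these 9 lists passed the threshold. At an unadjusted p under 0.05, 2 smooth muscle, 1 mural and 1 mesothelial marker were higher, and 1 fibroblast, 4 epithelial and 3 colonic position markers were lower, with Cdx1 in both of the last lists, against 7.15% of all probe sets. Whether the share of these cells had a part in the low values of Mfap2, Mfap4 and 1422540_at of Fbln1 in CONTROL_421 was not tested. RNA quality was not tested as a cause either. The Gapdh and Tfrc ratios of that colon lay outside those of the other arrays, in opposite directions, and its Actb ratio lay within them.

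**Figure D4:**
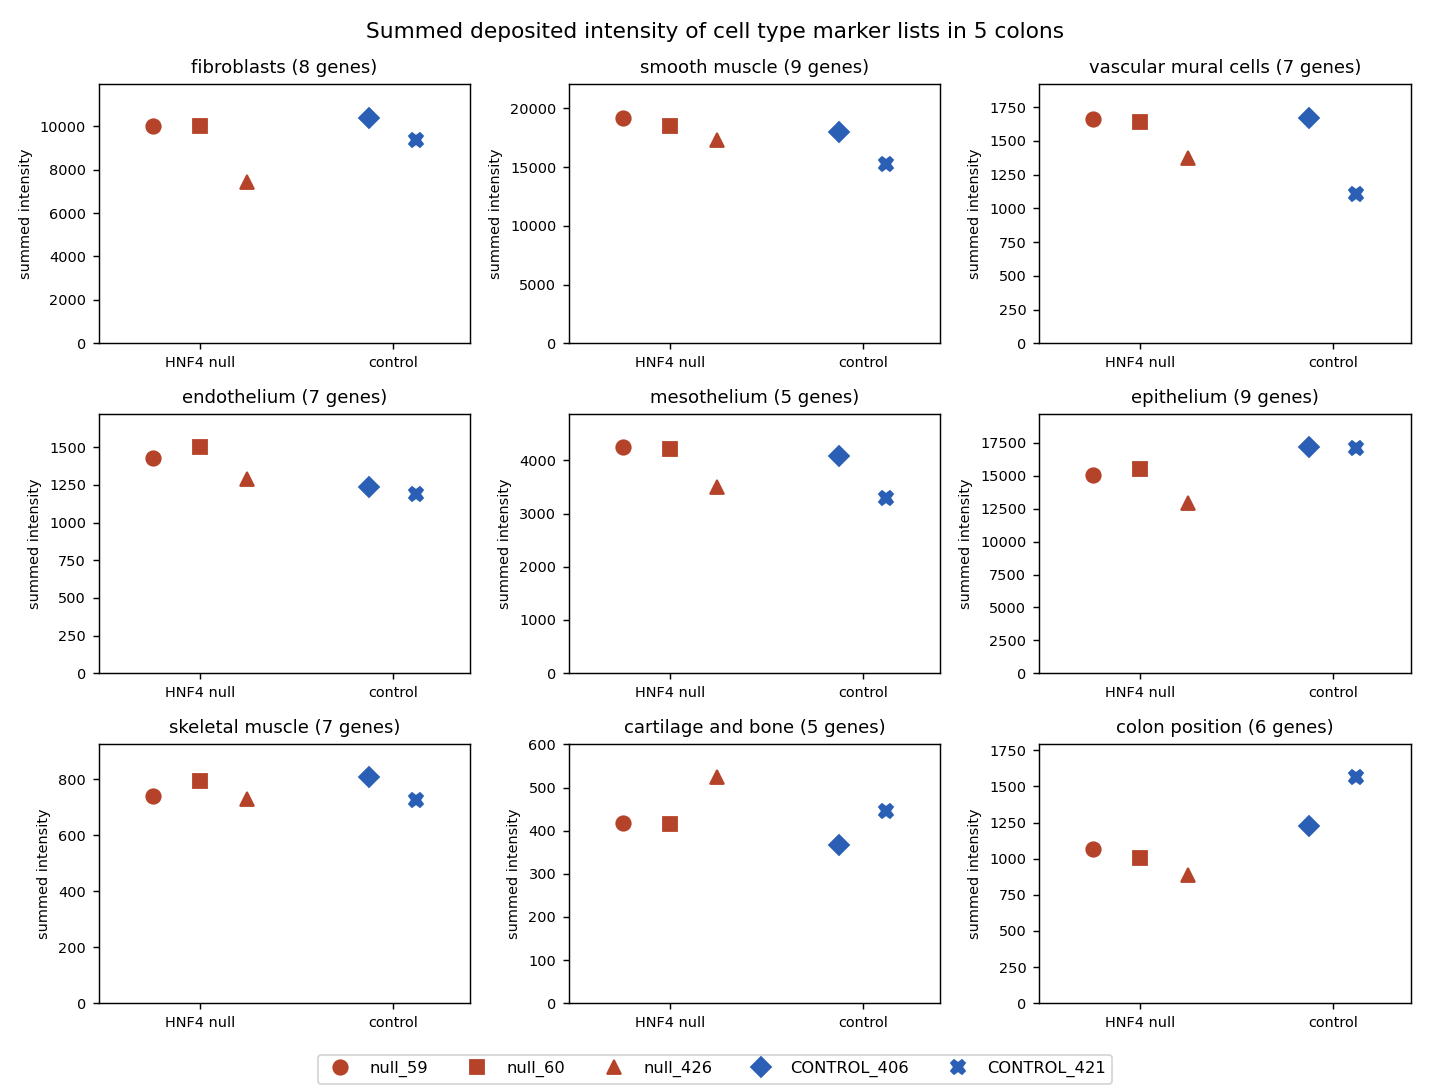
Summed deposited intensity (vertical axis, linear from 0) of the measured genes of 9 marker lists in the 3 HNF4 null colons (red, left) and 2 control colons (blue, right), with 1 symbol per array. CONTROL_421 (cross) has the lowest sum for smooth muscle, vascular mural cells, mesothelium, endothelium and skeletal muscle, null_426 (triangle) for fibroblasts, epithelium and colonic position, and CONTROL_406 (diamond) for cartilage and bone. The sums are unscaled, and CONTROL_421 had the lowest array median (124). Krt19 gave most of each mesothelium sum, and Cdx1 and Cdx2 gave most of each colonic position sum. After scaling, the median log2 difference of CONTROL_421 minus CONTROL_406 was 0.08 for endothelium and 0.10 for skeletal muscle. It was -0.21 for smooth muscle, -0.37 for vascular mural cells and -0.41 for mesothelium.

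The pattern of Eln was compared with 7328 genes of over median brightness, from which the members and all pathway and marker genes were left out. The 5 most like it were Nsg2, Pls1, Zdhhc4, Lat and Plekhg6. Likeness was the root mean square difference of centred log2 values over the 5 arrays, which was 0.025 to 0.039 for these genes, against 0.10 for the spread of Eln itself. The measure rests on 5 arrays and on small differences. Eln and all 5 genes were highest in CONTROL_406, which the choice by likeness to Eln over these arrays favours.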

How the data were processed

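The authors deposited a linear intensity for each probe set on each array. Per the labels' protocols, RNA came from Qiagen RNeasy mini columns and carried a biotin label, by standard Affymetrix steps. How probes were summarised, corrected for background and scaled is not given in the sources used here, and a few intensities were below 0.

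After 64 control probe sets were left out, 22626 were used. A platform annotation of 2016 gave 20380 of them 1 symbol, 691 several and 1555 none, and 20351 single symbols matched RefSeq genes by gene ID with 0 changes. Values below 0 were set to 0, and log2(intensity + 16) was quantile normalised. HNF4 null was compared with control by limma 3.58.1 in R 4.3.3 (two-sided, 9.33 degrees of freedom), with the Benjamini-Hochberg adjustment over all 22626 and 0.05 as the threshold. The scripts were tested on simulated data.

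The members and the lists were chosen with earlier results of these data known. Named were all members, the 3 brightest genes of each pathway role, list genes past the threshold and 5 genes with a pattern like that of Eln. Neu1, Ctss and the marker genes given with values fall outside this rule and were picked with their values in view.

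The alternatives were other scalings and pseudocounts, removal of dim probe sets, other variance priors, weighted arrays, gene means over probe sets and each array left out.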

Additional observations from a re-analysis of the deposited data

How the results depend on the processing

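In each of the 13 alternative settings run on the probe sets, 0 member probe sets passed the threshold by limma, while up to 3 had an unadjusted p under 0.05, the 3 without CONTROL_406 (Mfap2, Mfap4 and 1422540_at of Fbln1). In these settings and with the mean of the probe sets of a gene, 0 other pathway genes passed. The count over all probe sets was 28. A pseudocount of 1 gave 14, array weights gave 45, and leaving out dim probe sets, with 10 member probe sets kept, gave 17. With 1 array left out it ran from 8 (without null_60) to 104 (without CONTROL_406), and was 18 without CONTROL_421. The median log2 difference of the members was 0.08 and ran from -0.13 (without CONTROL_421) to 0.20 (without CONTROL_406). The number of member probe sets whose groups did not overlap was 3 and ran from 4 to 10 with 1 array left out, where 33% to 55.8% of all probe sets did not overlap. It was 5 without null_60 and 5 without null_426, 10 without CONTROL_406 and 6 without CONTROL_421. Signs changed in 6 of the 14 probe sets in at least 1 setting. Without CONTROL_421 they did so for Mfap2 (to -0.09), Mfap4 (to -0.16), 1451119_a_at of Fbln1 (to -0.09) and 1449082_at of Mfap5 (to -0.11). The sign of 1449082_at also changed without null_426 (to -0.13) and under median centring (to -0.0027). Without CONTROL_406 the sign changed for 1420854_at of Eln (to 0.04), and that of Fbln2, whose difference was near 0, changed under 6 settings. The cause was not tested. No paired analysis was possible because the labels give the null and control embryos no shared numbers. Fits with a single control take its spread to be that of the null group. The scale compresses differences of dim probe sets.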
